A study of Mus musculus with 2 samples.

Results

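The genes described here are 10 ligands and receptors of blood vessel growth (angiogenesis), chosen by symbol out of the 19070 genes of the probe set, all of which were present in both sections. They are Vegfa and its receptors Kdr and Flt1, the angiopoietins Angpt1 and Angpt2 with their receptor Tek, apelin (Apln) with its receptor Aplnr, the Notch ligand Dll4, and Esm1, a proteoglycan secreted by endothelial cells. Expression was measured in coronal brain sections of male C57Bl6 mice that had received a controlled cortical impact (CCI) at 3 months of age. In this contusion a driven tip compresses the cortex through a craniotomy. There were 2 groups of 1 section each, 1 mouse at 3 days and 1 mouse at 28 days after the impact. No sham-operated or uninjured section was analysed here, so the reference is the opposite side of the same section, which belongs to an injured brain. With 1 section per group the spread between animals is unknown and no difference was tested, and every interval below is a 95% interval that covers counting error only.

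The brain was perfusion-fixed and embedded in paraffin, and pairs of probes hybridised to each transcript were counted as unique molecular identifiers (UMIs) in square bins of 16 µm. A bin can hold parts of several cells. Because each gene is read by its own probes, levels were compared between places and times for a gene and never between genes. The section at 3 days held 121967 bins with a median of 836 UMIs, and the section at 28 days held 105589 bins with a median of 596. Levels are given in CPM, the UMIs of a gene out of all UMIs of the same area, scaled to a total of 1000000. The tissue carried the transcripts of its label: on the opposite side at 3 days, Snap25 of neurons stood at 3735 CPM and Mbp of myelin at 1308 CPM.

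Sprouting of new vessels is led by VEGF-A, which binds KDR, the main signalling receptor of endothelial cells, while FLT1 binds the same ligand and acts largely as a trap for it. Angiopoietin 1, released by cells around the vessel, activates TEK (also called Tie2) and keeps vessels quiet and tight, and angiopoietin 2, stored and released by endothelial cells, mostly opposes it. Apelin, Esm1 and Dll4 are produced by the tip cells at the front of a sprout, and DLL4 signals through Notch to hold neighbouring cells back. In the adult brain most endothelial cells are at rest behind the blood-brain barrier, and Vegfa is made mainly by astrocytes and neurons.

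The genes lie on 8 chromosomes of the mouse genome (GRCm38, which is mm10): Aplnr at chr2:85136225-85139923 on the plus strand, Dll4 at chr2:119325784-119335962 on the plus strand, Tek at chr4:94739289-94874976 on the plus strand, Kdr at chr5:75932827-75978458 on the minus strand, Flt1 at chr5:147561604-147726011 on the minus strand, Angpt2 at chr8:18690263-18741562 on the minus strand, Esm1 at chr13:113209659-113218098 on the plus strand, Angpt1 at chr15:42424723-42676977 on the minus strand, Vegfa at chr17:46016993-46032369 on the minus strand and Apln at chrX:48025146-48034853 on the minus strand. Start site windows of 7 of the 10 genes were found in RefSeq (GRCm38.p6), and those of Angpt1, Angpt2 and Aplnr were not analysed here. The windows of 4 genes are printed because the report turns on how differently these genes moved at the lesion: Apln and Kdr, which were higher there at 3 days, Tek, the receptor of the angiopoietins, and Vegfa, the ligand whose ratio at 3 days had an interval spanning 0. Each is the 250 bases before the transcription start, 5′ to 3′ on the strand of the gene, at chrX:48034854-48035103 for Apln, chr5:75978456-75978705 for Kdr, chr4:94739039-94739288 for Tek and chr17:46032378-46032627 for the first start site of Vegfa. Capitals mark GGAA or its reverse complement TTCC, the core that ETS factors of endothelial cells bind.
Apln: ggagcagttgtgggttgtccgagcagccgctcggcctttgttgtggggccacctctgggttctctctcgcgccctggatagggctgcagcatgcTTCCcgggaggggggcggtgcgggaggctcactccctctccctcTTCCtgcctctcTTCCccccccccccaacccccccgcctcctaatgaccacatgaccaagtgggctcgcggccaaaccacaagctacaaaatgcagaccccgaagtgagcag
Kdr: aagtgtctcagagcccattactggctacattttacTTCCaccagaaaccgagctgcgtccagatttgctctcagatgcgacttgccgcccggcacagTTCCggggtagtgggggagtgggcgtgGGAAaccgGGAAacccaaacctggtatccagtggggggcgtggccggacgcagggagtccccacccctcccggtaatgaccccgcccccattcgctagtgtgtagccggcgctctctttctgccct
Tek: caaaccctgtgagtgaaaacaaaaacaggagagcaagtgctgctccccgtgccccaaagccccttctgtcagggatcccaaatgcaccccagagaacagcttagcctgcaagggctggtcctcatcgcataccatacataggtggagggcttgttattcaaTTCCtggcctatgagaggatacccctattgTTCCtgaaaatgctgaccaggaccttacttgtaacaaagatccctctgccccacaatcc
Vegfa: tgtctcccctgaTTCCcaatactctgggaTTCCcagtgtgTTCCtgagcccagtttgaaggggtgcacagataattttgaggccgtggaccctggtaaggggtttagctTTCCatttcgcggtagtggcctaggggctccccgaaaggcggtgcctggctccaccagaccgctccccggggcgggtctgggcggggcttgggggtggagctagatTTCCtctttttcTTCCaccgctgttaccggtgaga
The core was matched 3 times in the Apln window, 4 times in that of Kdr, 2 times in that of Tek and 6 times in that of Vegfa, counting both strands. It was present in 93.4% of 32851 windows of this length, with a median of 3 matches. The core of the hypoxia response element, ACGTG or CACGT, was in 16.6% of the windows. Among the windows of the 7 genes it was in that of the second start site of Vegfa (chr17:46025164-46025413), with 1 match. By its position that window lies inside the Vegfa gene. A match describes the letters of a window only.

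The lesion was placed with 6 genes of phagocytes (Cd68, Lyz2, Ctsz, Lgals3, Cd52 and Laptm5), none of them among the 10. Tiles of 64 µm with a high share of these UMIs formed the lesion zone, 8384 bins at 3 days and 13559 bins at 28 days, and its reflection on the opposite side formed the mirrored zone, 8555 and 12447 bins. At 3 days the array held only 2.08 mm of the injured side, and 121 bins of the zone lay on its edge, so this zone is cut by the array. At 28 days 3.84 mm of the injured side was captured and no zone bin touched the edge. The zone held fewer UMIs per bin than its mirror, 602 against 935 at 3 days and 528 against 642 at 28 days, and ratios of CPM are relative to these totals. A ratio needed 20 UMIs, summed over the areas compared, and had 0.5 UMI added to each sum. It is called at least 2-fold where its log2 value was 1 or more, or -1 or less, and a gene is described as level where the interval spans 0, that is, where no difference was detectable at this depth.

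At 3 days most of the 10 genes were higher in the lesion zone than in the mirrored zone. Of the 9 genes with enough UMIs, 6 were at least 2-fold higher (Kdr, Angpt2, Tek, Apln, Esm1 and Dll4) and 0 were at least 2-fold lower. Over all 13565 genes the shares were 17.4% higher and 8.84% lower. The median log2 ratio was 1.39 for the 9 genes and 0.13 over all genes. Esm1 reached the minimum through its 15 UMIs in the lesion zone, against 7 in the mirrored zone. With a minimum of 50 UMIs per gene, which left out Esm1 and Dll4, 4 of 7 genes were at least 2-fold higher. The median of the 7 was then 1.28, and 15.8% of all genes were higher. At 28 days the picture was another: of 8 genes, 1 was at least 2-fold higher (Angpt1) and 0 were lower, where 16.5% of 13619 genes were higher and 8.16% lower. The median log2 ratio at 28 days was -0.24 for the 8 genes and 0.00 over all genes. With UMIs per bin in place of CPM, which put the median of all genes at -0.50 and -0.28, 3 genes were at least 2-fold higher at 3 days (Kdr, Apln and Esm1), against 9.05% of all genes, and 2 were lower at 28 days (Vegfa and Apln), against 14.1%. Such sums cannot tell more cells of a type from more RNA per cell.

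**Figure D1:**
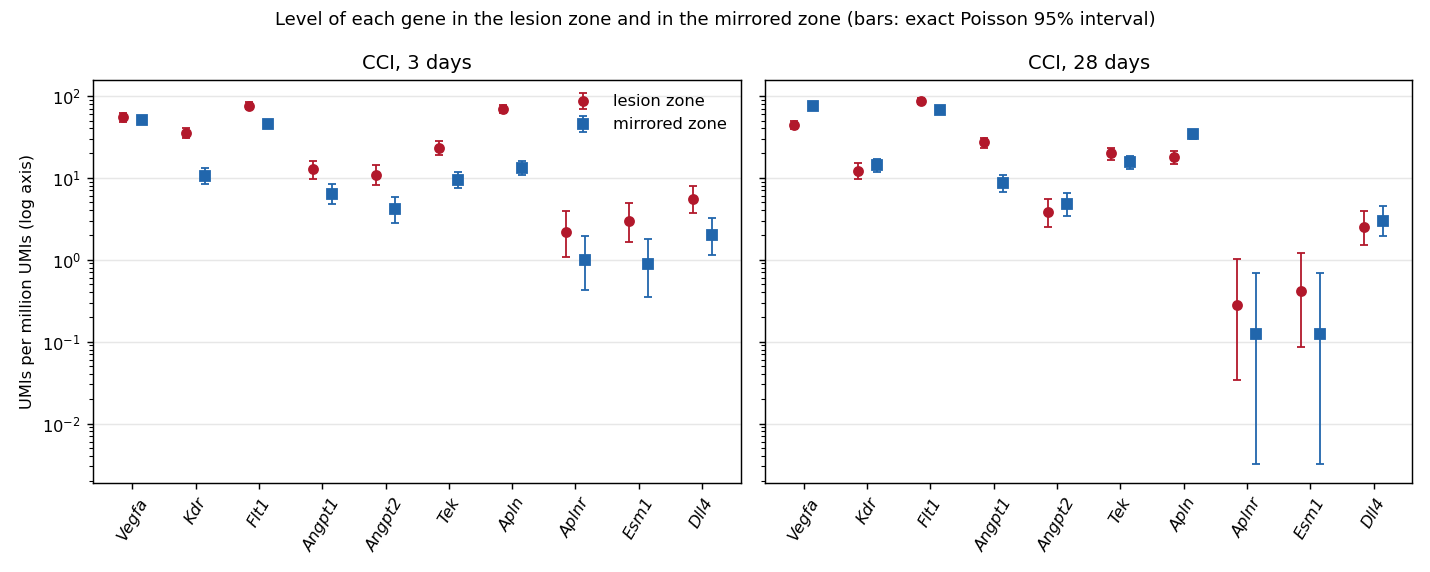
Level of each gene (CPM, log axis) in the lesion zone (red circles) and the mirrored zone (blue squares) at 3 and 28 days, with exact Poisson 95% intervals that cover counting error only. At 3 days Apln stood at 68.8 CPM in the zone and 13.2 CPM in the mirrored zone, and at 28 days it was the mirrored zone that was higher, 34 against 17.7 CPM, while Angpt1 was higher in the zone at 28 days.

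Vegfa, the ligand, did not stand out in the early lesion. It was counted with 275 UMIs in the lesion zone at 3 days and 411 UMIs in the mirrored zone, or 54.5 and 51.4 CPM. Both levels were below the 67 CPM of the whole opposite side. The log2 ratio of zone to mirror was 0.09 (95% interval -0.14 to 0.31), and against the whole opposite side it was -0.29 (-0.48 to -0.12). Its direction turned with the scaling as well, to -0.55 for UMIs per bin and -0.09 with TMM scaling. At 28 days Vegfa stood at 43.7 CPM in the zone (313 UMIs) and 75.2 CPM in the mirrored zone (601 UMIs), a log2 ratio of -0.78 (-0.98 to -0.58). The late lesion held the lowest level of Vegfa of the 4 zones, and the mirrored zone at 28 days the highest.

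Kdr and Flt1, which share this ligand, did not move alike. Kdr stood at 35.3 CPM in the lesion zone at 3 days (178 UMIs) and 10.6 CPM in the mirrored zone (85 UMIs), 3.31-fold higher, with a log2 ratio of 1.73 (1.35 to 2.12). Flt1 stood at 75.9 CPM (383 UMIs) and 45 CPM (360 UMIs), with a log2 ratio of 0.75 (0.54 to 0.97). The number of Flt1 UMIs per Kdr UMI was 2.15 in the zone and 4.24 in the mirrored zone, an odds ratio of 0.508 (0.373 to 0.689). At 28 days the order had turned. Kdr stood at 12.2 CPM in the zone and 14.3 CPM in the mirrored zone, a log2 ratio of -0.23 (-0.65 to 0.18) whose interval spans 0, and Flt1 at 86.9 and 67 CPM, a log2 ratio of 0.38 (0.21 to 0.55). Per Kdr UMI there were then 7.15 Flt1 UMIs in the zone and 4.69 in the mirrored zone, an odds ratio of 1.52 (1.11 to 2.09).

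Angpt1 and Angpt2, the opposing ligands of Tek, were both higher in the lesion zone at 3 days, and Angpt1 alone at 28 days. At 3 days Angpt2 stood at 10.9 CPM in the lesion zone (55 UMIs) and 4.12 CPM in the mirrored zone (33 UMIs), a log2 ratio of 1.39 (0.75 to 2.07). That value rests on where the mirrored zone lies, since it was 1.89 against the whole opposite side and 3.46 with the line between the sides moved by 16 bins away from the injured side. Angpt1 stood at 12.7 CPM (64 UMIs) and 6.37 CPM (51 UMIs), a log2 ratio of 0.99 (0.44 to 1.55), just under 2-fold. There were 0.859 Angpt2 UMIs per Angpt1 UMI in the zone and 0.647 in the mirrored zone, an odds ratio of 1.33 (0.726 to 2.44). Over the zone as a whole no shift of the balance was thus detectable at this depth. In its part 250 µm or more inside the border there were 27 Angpt2 and 8 Angpt1 UMIs, against 2 and 13 in the matching band opposite. No odds ratio was computed for that part, and the pooled one also rests on where the mirrored zone lies.

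By 28 days Angpt1 had the highest ratio of the 8 genes, with 27 CPM in the zone (193 UMIs) and 8.64 CPM in the mirrored zone (69 UMIs), 3.11-fold higher at a log2 ratio of 1.64 (1.24 to 2.06). Angpt2 stood at 3.77 CPM (27 UMIs) and 4.76 CPM (38 UMIs), a log2 ratio of -0.33 (-1.10 to 0.42) that turned to 0.58 (-0.11 to 1.17) against the whole opposite side. The balance was then 0.14 Angpt2 UMIs per Angpt1 UMI in the zone and 0.551 in the mirrored zone, an odds ratio of 0.255 (0.139 to 0.464). Tek, the receptor, was 2.44-fold higher in the zone at 3 days, with 23.2 CPM (117 UMIs) against 9.5 CPM (76 UMIs) and a log2 ratio of 1.28 (0.86 to 1.72). In the later section Tek stood at 19.8 CPM (142 UMIs) and 15.5 CPM (124 UMIs), a log2 ratio of 0.35 (-0.00 to 0.71).

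Apln, the peptide ligand of the apelin receptor, showed the widest swing. It was counted with 347 UMIs in the lesion zone at 3 days, or 68.8 CPM, and with 106 UMIs in the mirrored zone, or 13.2 CPM, 5.17-fold higher at a log2 ratio of 2.37 (2.06 to 2.70). In the section at 28 days Apln was counted with 127 UMIs in the zone, or 17.7 CPM, and 272 UMIs in the mirrored zone, or 34 CPM, a log2 ratio of -0.94 (-1.26 to -0.63). The second value depended on the reference. The mirrored zone at 28 days was itself above the rest of its side, which stood at 22.5 CPM as a whole, and against the whole opposite side the log2 ratio was -0.34 (-0.62 to -0.07). The early value did not: against the whole opposite side, at 16.2 CPM, it was 2.09 (1.91 to 2.26). Per Vegfa UMI, Apln had 1.26 UMIs in the zone and 0.258 in the mirrored zone at 3 days, an odds ratio of 4.89 (3.72 to 6.45), and 0.406 and 0.453 at 28 days, an odds ratio of 0.897 (0.691 to 1.16).

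Aplnr, the apelin receptor, was too sparse to follow its ligand. At 3 days it had 11 UMIs in the lesion and 8 in the mirrored zone, and 2 and 1 at 28 days, below the minimum of 20 at both times. Against the larger opposite side, where 39 UMIs gave 0.47 CPM, the 11 UMIs at 3 days (2.18 CPM) gave a log2 ratio of 2.26 (1.10 to 3.21). Esm1 was as sparse. It had 15 UMIs in the zone at 3 days (2.97 CPM) and 7 in the mirrored zone (0.875 CPM), a log2 ratio of 1.71 (0.38 to 3.30), and at 28 days 3 and 1. Against the 28 UMIs of the whole opposite side its log2 ratio at 3 days was 3.16 (2.13 to 4.09). Dll4 stood at 5.55 CPM in the zone at 3 days (28 UMIs) and 2 CPM in the mirrored zone (16 UMIs), a log2 ratio of 1.45 (0.54 to 2.46). In the later section Dll4 stood at 2.51 and 3 CPM (18 and 24 UMIs), a log2 ratio of -0.25 (-1.22 to 0.69). Apln, Esm1 and Dll4, introduced above as tip cell genes, were thus each at least 2-fold higher in the zone at 3 days. Neither Apln nor Dll4 was higher at 28 days, when Esm1 was too sparse to follow. Whether these UMIs came from tip cells was not tested. The further tip cell genes described below had a median log2 ratio of 1.36 at 3 days and 1.19 at 28 days.

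The lesion zones were also set against each other over time. In the zone at 28 days against the zone at 3 days, the log2 ratio of CPM was -1.95 for Apln (-2.26 to -1.66), -1.53 for Kdr (-1.92 to -1.16), -1.52 for Angpt2 (-2.25 to -0.84) and -1.13 for Dll4 (-2.08 to -0.24). For the sparse genes it was -2.71 for Aplnr (-6.18 to -0.77, on 2 against 11 UMIs) and -2.65 for Esm1 (3 against 15 UMIs). It was 1.08 for Angpt1 (0.67 to 1.52), and Vegfa (-0.32), Tek (-0.23) and Flt1 (0.19) lay closer to 0. These are 2 mice and 2 libraries, so a difference of time cannot be told apart from one of animal, section or library. The opposite sides come from the same 2 mice and libraries, so they do not measure the spread between animals or lesions. There the log2 ratio of 28 to 3 days lay between -0.20 and 0.15 for Vegfa, Kdr, Flt1, Angpt1, Angpt2 and Tek. It was 0.29 for Dll4 and 0.47 for Apln (0.36 to 0.59). The sparse genes lay farthest from 0, Aplnr at -0.78 (-1.89 to 0.14) and Esm1 at 0.54 (-0.35 to 1.39). Apln thus differed between the opposite sides as well, in the other direction than in the zones. The mirrored zones differed more than the whole sides, with 1.36 for Apln, 0.71 for Tek, 0.57 for Flt1 and 0.55 for Vegfa. Aplnr stood there at -2.50 (-8.47 to -0.10, on 1 against 8 UMIs) and Esm1 at -2.32 (-8.30 to 0.16, on 1 against 7 UMIs). These 2 values lie near those of the lesion zones. The mirrored zones do not cover the same regions of the brain.

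Over whole sides the differences were smaller. The injured side at 3 days was at least 2-fold higher for 1 of 10 genes (Esm1) and 2-fold lower for 0, where 10.5% of 16164 genes were higher and 2.12% lower, and the median log2 ratio was 0.56 for the 10 genes and 0.14 over all genes. Esm1 stood at 0.772 CPM on the injured side (29 UMIs) and 0.338 CPM on the opposite side (28 UMIs), a log2 ratio of 1.19 (0.39 to 2.00). The next in order were Kdr at 0.85 (0.72 to 0.99), Angpt1 at 0.75 (0.57 to 0.92), Apln at 0.71 (0.59 to 0.83) and Angpt2 at 0.66 (0.37 to 0.94), whose intervals overlap, and Vegfa had 0.20 (0.14 to 0.27). Choroid plexus markers moved with the side at 3 days: 10 of 10 were at least 2-fold higher on the injured side, with a median log2 ratio of 2.33. With the tiles rich in them left out, the value of Kdr was 0.55. Endothelial marker RNA was also higher on the injured side at 3 days, and values relative to it are given below. At 28 days 0 of 10 genes passed 2-fold in either direction, where 6.43% of 15640 genes were higher and 0.582% lower. Angpt1 was then the farthest from 0, with 14 CPM on the injured side (520 UMIs) and 7.93 CPM on the opposite side (358 UMIs), a log2 ratio of 0.82 (0.62 to 1.02). Apln (-0.43, -0.58 to -0.29) and Vegfa (-0.30, -0.38 to -0.22) were lower, and Flt1 (-0.00) and Tek (0.01) were level.

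**Figure D2:**
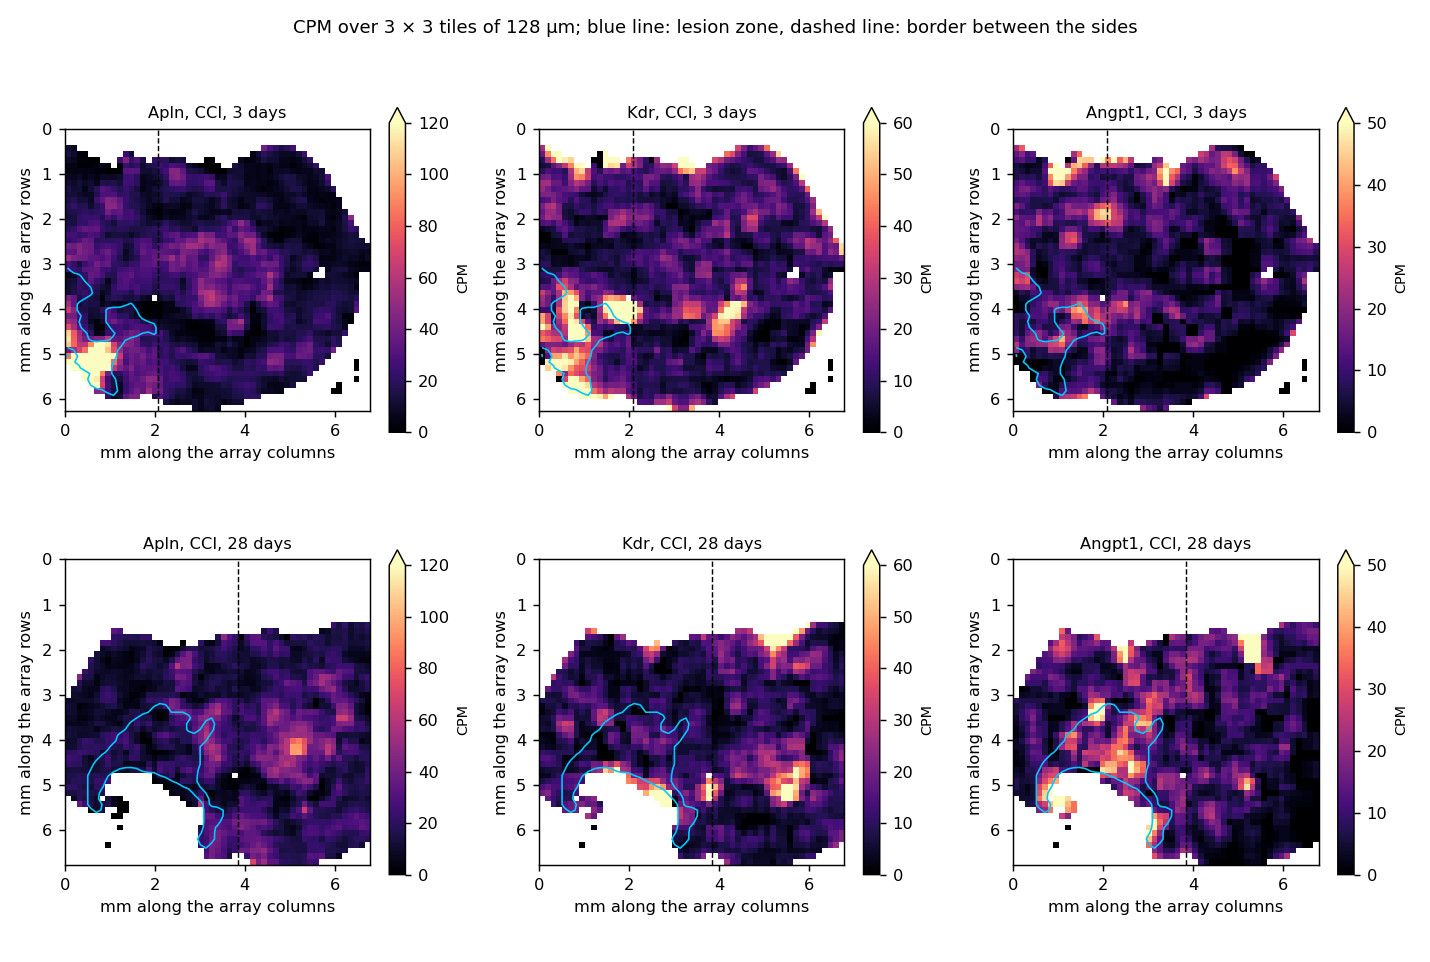
Maps of Apln, Kdr and Angpt1 in both sections, as CPM over squares of 3 by 3 tiles, with the lesion zone outlined in blue and the border between the sides dashed (axes in mm along the array). Apln was concentrated within the zone at 3 days, where its interior stood at 121 CPM, and the band of high Angpt1 lay along the zone at 28 days, at 33.3 CPM in the interior.

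Distance from the lesion separated the genes further. The zone was divided at 250 µm inside its border, and the injured side outside it at 250, 500, 1000 and 2000 µm. Depth in the zone was measured from the nearest captured tissue outside the zone. Places without captured tissue, such as the cut edge of the array at 3 days, did not count as a border. The interior can therefore reach up to such an edge. Each band was set beside all bins of the opposite side at the same distance from the mirrored zone. At 3 days, where less of the injured side was captured, the opposite bands outside the zone therefore also hold tissue with no captured counterpart (25745 bins against 9102 from 1000 to 2000 µm). The bands were recomputed with only those bins whose reflection lay over tissue as well, an alternative added after the data were seen, and its values are given as the partnered values, among them each that moved an interval named here onto 0 or past it. Apln at 3 days was highest in the interior, where it stood at 121 CPM (186 UMIs) and 13.1 CPM in the matching band opposite (37 UMIs), a log2 ratio of 3.20 (2.70 to 3.76). Within 250 µm of the border it stood at 45.8 CPM, a log2 ratio of 1.78 (1.37 to 2.21). In the first 250 µm outside the zone it was level with the other side, at 17.7 and 18.5 CPM, a log2 ratio of -0.05 (-0.46 to 0.33). Farther out it was -0.01, then 0.32 (0.04 to 0.59) from 500 to 1000 µm, 0.44 (0.18 to 0.69) from 1000 to 2000 µm and -0.15 (-0.60 to 0.27) beyond. The last 3 of these rested on the reference: the partnered values were -0.04 (-0.36 to 0.27), 0.08 (-0.23 to 0.38) and -0.69 (-1.22 to -0.18). In the zone the partnered values for Apln were 3.29 and 1.73. Vegfa had 0.45 from 1000 to 2000 µm (0.33 to 0.57) and a partnered value of 0.24 (0.09 to 0.39).

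Angpt2 was as deep at 3 days, with 17.6 CPM in the interior (27 UMIs) and 0.708 CPM in the matching band (2 UMIs), a log2 ratio of 4.34 (2.65 to 7.76) that rests on those 2 UMIs. Nearer to the border it was 0.41 (-0.38 to 1.20). Dll4 followed with 10.4 CPM (16 UMIs) against 2.12 CPM (6 UMIs) in the interior, a log2 ratio of 2.23 (0.87 to 3.94), and Flt1 with 153 against 117 UMIs, 1.27 (0.91 to 1.63). Among partnered bins of the interior Dll4 had 12 and 3 UMIs, below the minimum for a ratio. Vegfa in the interior stood at 75.7 and 61.6 CPM, a log2 ratio of 0.30 (-0.05 to 0.65; partnered 0.38, 0.00 to 0.76).

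Endothelial marker RNA was not computed by band, so the band ratios are not adjusted for it. In CPM, Kdr was higher beyond the zone as well at 3 days. Its log2 ratio was 2.21 in the interior (1.60 to 2.89), 1.44 inside the border (0.96 to 1.95), 1.46 in the first 250 µm outside (1.13 to 1.81) and 0.82 in the next 250 µm (0.44 to 1.22). From 500 to 1000 µm it was -0.17 (-0.66 to 0.29) and from 1000 to 2000 µm 0.27 (-0.04 to 0.57), and over 2000 µm away it was 0.56 (0.24 to 0.87), where the partnered value was -0.03 (-0.55 to 0.49). Up to 500 µm outside the partnered values for Kdr were 2.04, 1.46, 1.47 and 0.68 (0.21 to 1.19). Tek went from 1.53 in the interior (0.80 to 2.31) through 1.16 to 0.50 just outside (0.04 to 0.95; partnered 0.39, -0.14 to 0.93). Angpt1 at 3 days had too few UMIs in the interior to place it there, 8 against 13 opposite, with a log2 ratio of 0.22 (-1.29 to 1.56) whose interval holds the values of all other bands. Inside the border it was 1.11 (0.50 to 1.75), and outward it was 0.79, 0.76, 1.27 (0.70 to 1.86), 1.08 (0.74 to 1.42) and, over 2000 µm away, 0.37 (0.03 to 0.70). Its partnered values from the border outward were smaller in all but one band outside, at 0.44 (-0.14 to 1.04), 0.87, 0.96 (0.29 to 1.69), 0.54 (0.13 to 0.96) and 0.18 (-0.29 to 0.65). The median over the genes with enough UMIs was 1.87 in the interior, 0.96 inside the border, 0.45 in the first 250 µm outside and 0.19 in the next, and farther out 0.06, 0.37 and 0.26, of which the last 2 were 0.14 and -0.19 among partnered bins. Outside the zone at 3 days 2 values had intervals wholly below 0, Angpt2 from 500 to 1000 µm at -1.13 (-2.16 to -0.29) and Dll4 from 1000 to 2000 µm at -1.14 (-2.26 to -0.27), with partnered values of -2.03 (-3.08 to -1.17) and -1.30 (-2.50 to -0.27).

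At 28 days Angpt1 was highest in the interior, with 33.3 CPM (111 UMIs) against 6.71 CPM (27 UMIs), a log2 ratio of 2.29 (1.69 to 2.97). It was 1.01 inside the border (0.47 to 1.59), 1.56 in the first 250 µm outside (0.92 to 2.25), 0.94 in the next (0.41 to 1.48) and 0.61 from 500 to 1000 µm (0.15 to 1.09; partnered 0.21, -0.33 to 0.75), and from 1000 to 2000 µm it was -0.45 (-0.83 to -0.08; partnered -0.02, -0.47 to 0.42). In the interior its partnered value was 1.85 (1.20 to 2.59). From 1000 to 2000 µm the genes with enough UMIs lay between -0.98 for Kdr (-1.42 to -0.56) and -0.06 for Angpt2, with a median of -0.44 where that of all genes was -0.04. Among partnered bins that median was -0.34, and Kdr (-0.77, -1.33 to -0.24), Vegfa (-0.40, -0.61 to -0.20) and Flt1 (-0.34, -0.58 to -0.10) had intervals wholly below 0. Vegfa and Apln were lowest in the interior, with log2 ratios of -1.03 (-1.34 to -0.74) and -1.32 (-1.82 to -0.86), and both were level in the first 250 µm outside, at -0.03 and 0.11. Kdr was level in the interior (0.07, -0.54 to 0.66) and higher in the first 250 µm outside, with 15.9 against 9.16 CPM and a log2 ratio of 0.80 (0.35 to 1.25; partnered 1.14, 0.59 to 1.74).

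**Figure D3:**
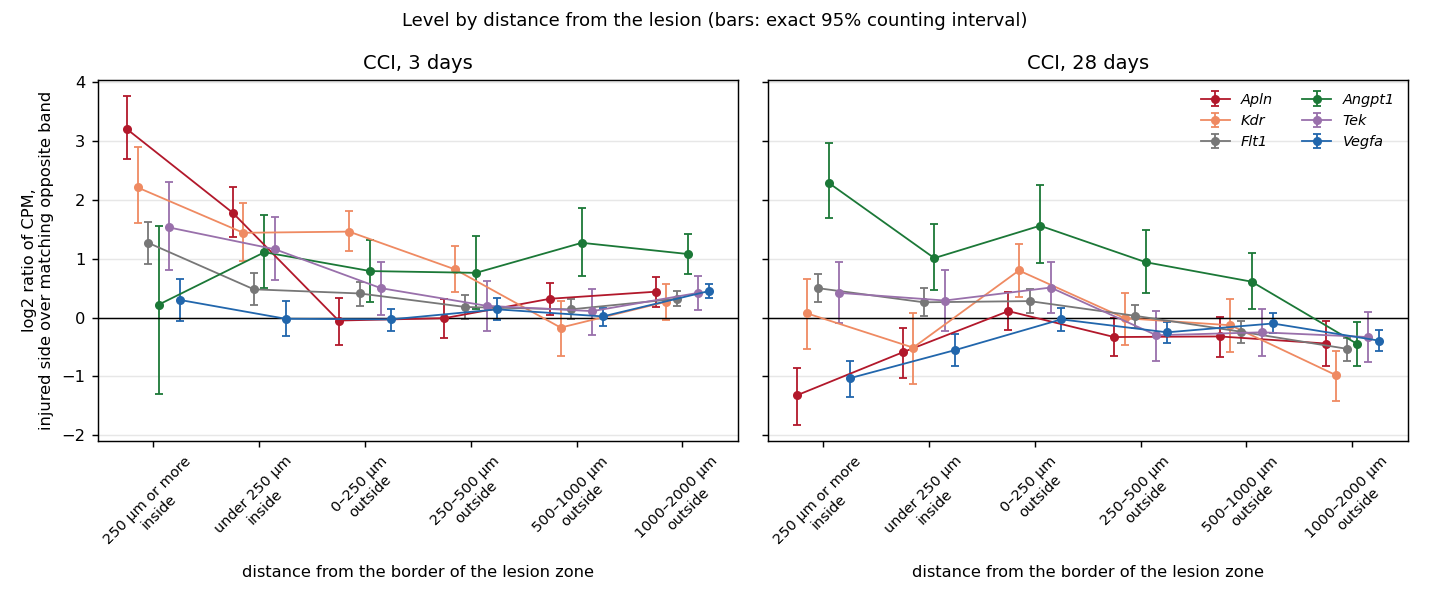
Log2 ratio of CPM, injured side over all opposite-side bins of the matching band, against the distance band from the border of the lesion zone for 6 genes, with exact 95% counting intervals. At 3 days Apln stood at 3.20 in the interior and at -0.05 just outside the zone while Kdr was still at 1.46 there, and at 28 days Angpt1 stood at 2.29 in the interior where Apln stood at -1.32.

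Endothelial marker RNA was itself not evenly distributed. The 7 reference genes of endothelial cells (Cldn5, Cdh5, Pecam1, Esam, Erg, Emcn and Egfl7) were at least 2-fold higher in the lesion zone at 3 days in 7 of 7 cases, with a median log2 ratio of 1.76, and their summed level was 581 CPM in the zone and 175 CPM in the mirrored zone. At 28 days 0 of 7 were, with a median of 0.33 and sums of 299 and 228 CPM. Each gene was therefore also counted per 1000 reference UMIs of the same area. On this scale Kdr at 3 days was 60.7 in the zone and 60.7 in the mirrored zone, a log2 ratio of -0.00 (-0.38 to 0.39). Angpt2 (-0.34, -0.98 to 0.34), Dll4 (-0.28, -1.20 to 0.73) and Esm1 (-0.02, -1.35 to 1.57) were no longer higher. Flt1 was lower, with 131 in the zone and 257 in the mirrored zone, a log2 ratio of -0.98 (-1.19 to -0.77), as were Tek (-0.45, -0.87 to -0.01), Angpt1 (-0.74, -1.29 to -0.18) and Vegfa (-1.65, -1.87 to -1.42). Vegfa and Angpt1 are made largely by other cells, so for them this ratio also falls where endothelial RNA is higher. At neither time does it give their level in the cells that make them.

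Apln was the only 1 of the 10 genes with an interval above 0 per endothelial reference UMI at 3 days, with 118 per 1000 in the zone and 75.7 in the mirrored zone, a log2 ratio of 0.64 (0.33 to 0.97). The reference genes set against their own sum ranged at 3 days from -0.49 for Egfl7 to 0.91 for Cdh5, so the values of Apln and Tek both lie within their range. This scale sets all Apln UMIs against endothelial RNA, wherever they lay. In bins with an endothelial UMI there were 149 Apln UMIs in the zone and 14 in the mirrored zone, and in bins without one 198 and 92. At 28 days these counts were 13 and 36 with an endothelial UMI, and 114 and 236 without. Which cells the Apln UMIs came from was not tested. At 28 days Angpt1 was the gene above 0, with 90.2 per 1000 in the zone and 37.9 in the mirrored zone, a log2 ratio of 1.24 (0.85 to 1.67). Flt1 (-0.02) and Tek (-0.04) were level, and Kdr (-0.62, -1.04 to -0.21), Vegfa (-1.17, -1.38 to -0.97) and Apln (-1.33, -1.65 to -1.02) were lower. The reference genes then ranged from -0.23 for Emcn to 0.33 for Cdh5. Over whole sides at 3 days the reference sum was 306 CPM on the injured side and 201 CPM opposite. Per reference UMI the log2 ratio of these sides was 0.24 for Kdr (0.11 to 0.38) and 0.14 for Angpt1 (-0.04 to 0.31). For Apln it was 0.10 (-0.02 to 0.22), for Angpt2 0.05 (-0.24 to 0.33), for Flt1 -0.29 (-0.36 to -0.22) and for Vegfa -0.41 (-0.47 to -0.34). Over these sides the reference genes ranged from -0.20 for Egfl7 to 0.34 for Cdh5 and Pecam1, so the value of Kdr lies within their range. Choroid plexus tiles were not left out of these values.

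**Figure D4:**
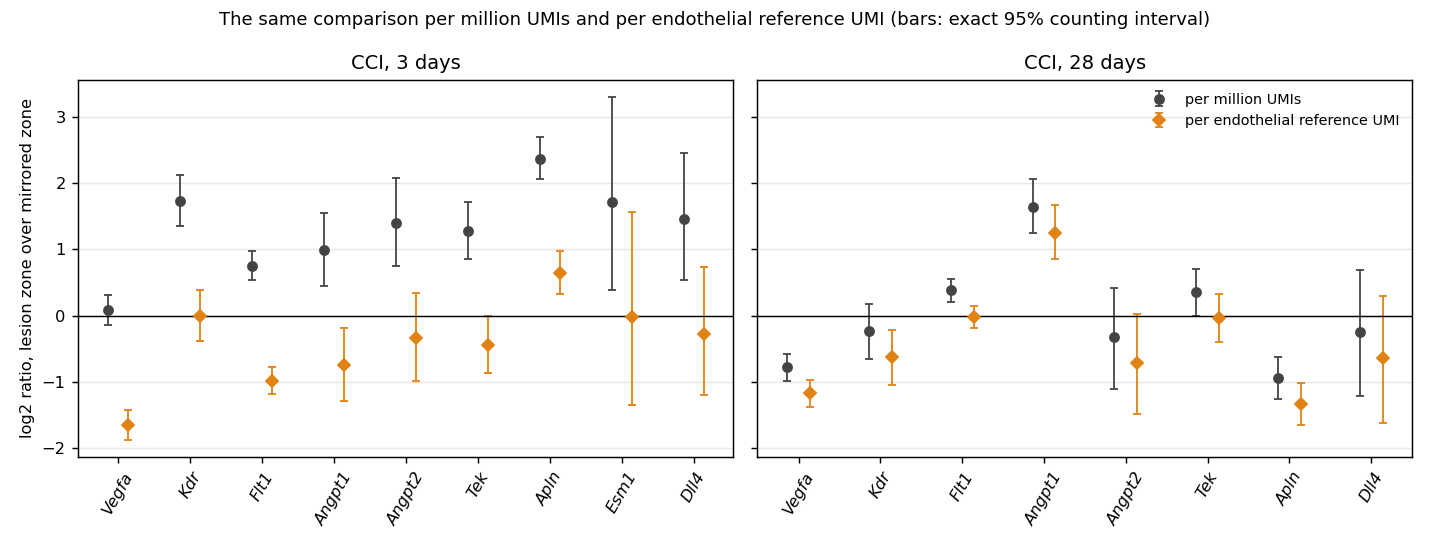
Log2 ratio of lesion zone over mirrored zone for each gene with at least 20 UMIs, in CPM (grey circles) and per UMI of the endothelial reference genes (orange diamonds), with exact 95% counting intervals. At 3 days Kdr went from 1.73 to -0.00 and Apln from 2.37 to 0.64, and at 28 days Angpt1 went from 1.64 to 1.24.

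Levels were also compared in CPM within single bins, which does not adjust for the amount of endothelial RNA, since a bin counted as endothelial with 1 reference UMI or more. The lesion zone at 3 days had 1605 bins with a UMI of an endothelial reference gene and the mirrored zone 1031. Within such bins Apln stood at 122 CPM in the zone (149 UMIs) and 11.6 CPM in the mirrored zone (14 UMIs), a log2 ratio of 3.36 (2.61 to 4.31), and in the other bins at 51.7 and 13.5 CPM, 1.93 (1.57 to 2.31). Angpt2 stood at 27.9 CPM (34 UMIs) and 5.78 CPM (7 UMIs) in the endothelial bins, 2.19 (1.07 to 3.69), and at 0.53 (-0.38 to 1.41) in the others. Kdr was higher in both kinds, 1.84 (1.27 to 2.48) and 1.09 (0.55 to 1.64), unlike its ratio of -0.00 per reference UMI. Angpt1 was higher in the bins without an endothelial UMI, 1.22 (0.59 to 1.87), and level in those with one, 0.09 (-1.10 to 1.31). At 28 days Angpt1 was higher in both, with 38.3 CPM (42 UMIs) against 7.22 CPM (8 UMIs) in endothelial bins, 2.33 (1.30 to 3.71), and 24.9 against 8.86 CPM in the others, 1.48 (1.05 to 1.94).

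Across whole sections the receptors shared their bins with endothelial genes. In bins with an endothelial UMI (19499 of 119617 at 3 days) the log2 ratio of CPM to the bins without one was 1.95 for Tek (1.80 to 2.09), 1.89 for Kdr (1.75 to 2.02), 1.76 for Dll4 (1.43 to 2.08) and 1.70 for Flt1 (1.63 to 1.77). At 28 days these values were 1.93, 1.73, 1.45 and 1.68. The ligand Vegfa was level, at -0.03 (-0.11 to 0.05) and -0.11 (-0.22 to 0.00), and Angpt1 stood at 0.39 (0.18 to 0.59) and 0.48 (0.23 to 0.72). Apln was level over the section at 3 days, at 0.15 (0.00 to 0.29), and level in the mirrored zone, at -0.19 (-1.15 to 0.59), but within the lesion zone it stood at 1.24 (0.92 to 1.56). In the lesion zone at 28 days it was -0.62 (-1.62 to 0.16). Bins are neighbours in 1 section and are not replicates.

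Most of the genes other than Apln were higher in bins with fibroblast markers (Dcn, Lum, Col1a1, Col1a2 and Pdgfra). Fibroblasts of the brain lie in the meninges and around larger vessels, but Pdgfra is also a marker of oligodendrocyte precursors throughout the tissue. In bins with such a UMI (7735 at 3 days, 4915 at 28 days) the log2 ratio for Angpt2 was 2.68 (2.37 to 2.98) and 2.49 (2.00 to 2.93), and for Esm1 2.74 (1.83 to 3.56) and 3.42 (2.38 to 4.37), the latter on 15 of 41 UMIs. With Pdgfra left out of the list, an alternative added after the data were seen, the values were 3.02 (2.71 to 3.33) and 2.89 (2.40 to 3.34) for Angpt2 and 3.03 (2.10 to 3.86) and 3.71 (2.64 to 4.67) for Esm1. By that list Aplnr was as high at 3 days, at 3.19 (2.32 to 3.97), and had 0 of its 22 UMIs there at 28 days, and Kdr stood at 2.47 (2.31 to 2.63) and 2.20 (1.93 to 2.45), above its values in endothelial bins. Tek (1.96 and 1.85), Dll4 (1.99 and 1.43), Angpt1 (1.60 and 1.32) and Flt1 (1.45 and 1.30) were higher there as well. Vegfa stood at 0.35 (0.22 to 0.47) and 0.31 (0.12 to 0.50). Apln was lower there, at -0.92 (-1.32 to -0.57) and -0.74 (-1.27 to -0.30). Esm1 was also higher in bins with choroid plexus markers, at 2.58 (1.73 to 3.38) and 2.57 (1.56 to 3.52), as was Kdr, at 1.40 (1.23 to 1.56) and 1.14 (0.89 to 1.37), while Flt1 (0.12 and 0.04) and Tek (0.24 and 0.06) were close to level there.

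Astrocyte markers were found in 110871 of 119617 bins at 3 days, so a single UMI separates few bins. In the 10% of bins with the highest share of these markers, a rule chosen after the data were seen, Angpt1 stood at 20.2 CPM at 3 days and 8.5 CPM in the others, a log2 ratio of 1.26 (0.98 to 1.52), and at 27.2 and 9.75 CPM at 28 days, 1.49 (1.19 to 1.76). By the same rule Vegfa stood at 0.79 (0.67 to 0.89) and 0.41 (0.25 to 0.57), and Apln at 1.02 (0.82 to 1.21) and 0.77 (0.50 to 1.01). With any astrocyte UMI as the rule, the values were -0.16 and 0.08 for Angpt1, -0.14 and -0.21 for Vegfa and -0.46 and 0.31 for Apln. Angpt1 at 28 days was also higher in bins with a microglia or macrophage UMI, at 15.8 against 9.18 CPM, a log2 ratio of 0.78 (0.58 to 0.99).

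**Figure D5:**
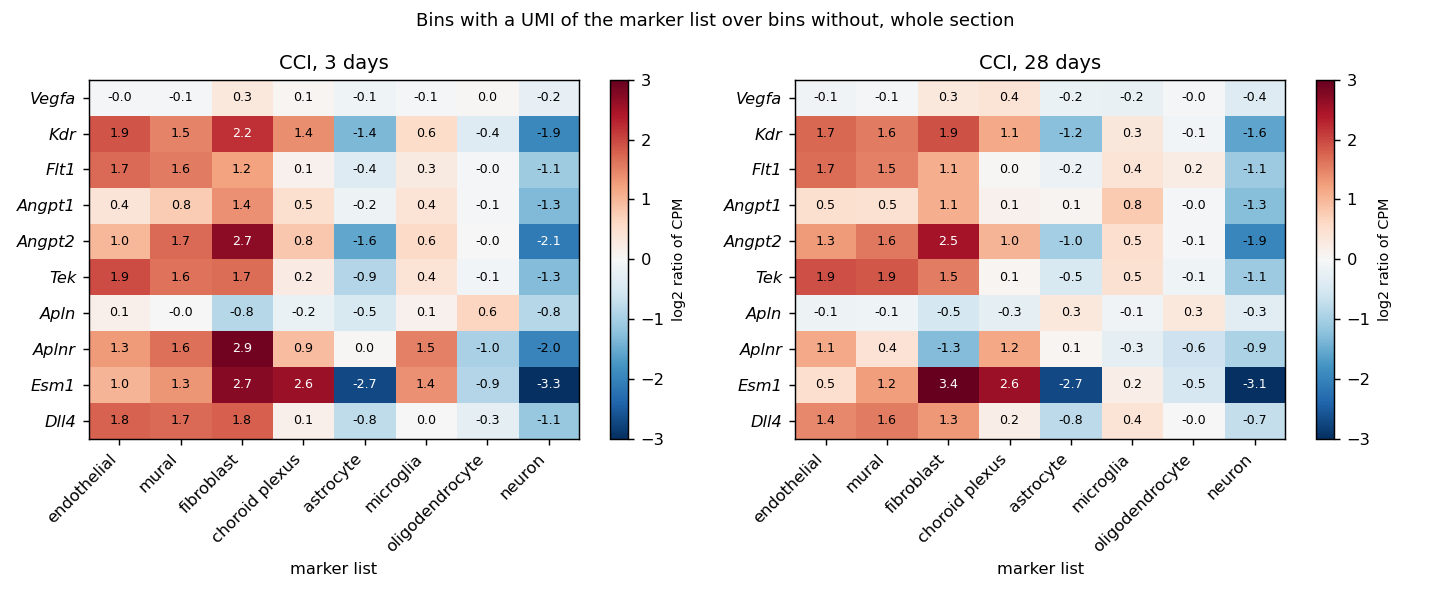
Log2 ratio of CPM of each gene in bins with a UMI of a marker list over bins without one, whole sections at 3 and 28 days (rows: genes; columns: marker lists; red higher, blue lower). Kdr, Flt1, Tek and Dll4 lay between 1.45 and 1.95 in the endothelial column at both times, most genes other than Apln were higher in the fibroblast column too (Kdr 2.18 and 1.92, Angpt2 2.68 and 2.49), and Vegfa was near 0 for endothelial markers.

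Other cell types moved with the zone, and their part in the values above was not tested. At 3 days 5 of 5 fibroblast markers (median log2 ratio 2.56), 6 of 7 microglia and macrophage markers outside the zone genes (1.47), 6 of 6 oligodendrocyte markers (1.50), 5 of 8 pericyte and smooth muscle markers (1.28) and 3 of 7 astrocyte markers (0.70) were at least 2-fold higher, and 6 of 7 neuron markers (-1.34) and 7 of 10 choroid plexus markers (-1.13) were at least 2-fold lower. At 28 days 7 of 7 microglia and macrophage markers (3.21), 4 of 5 fibroblast markers (2.62), 5 of 7 astrocyte markers (1.17) and 3 of 8 pericyte and smooth muscle markers (0.93) were higher, 7 of 7 neuron markers (-1.42) and 6 of 10 choroid plexus markers (-1.21) were lower, and 0 of 6 oligodendrocyte markers (0.18) passed 2-fold. Some of these counts rest on the reference. Against the whole opposite side 0 of 10 choroid plexus markers were lower and 2 higher at 3 days (median 0.38), and 5 of 6 oligodendrocyte markers were higher at 28 days (median 1.01). With the bins that held a fibroblast UMI left out, 4 of 8 genes were at least 2-fold higher at 3 days and the median was 1.15, where 16.9% of all genes were higher and their median was 0.12.

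The other genes of these pathways were read from 7 lists of 51 genes, and their counts are to be set against the shares over all genes, of which 17.4% were at least 2-fold higher and 8.84% lower at 3 days and 16.5% and 8.16% at 28 days. Of 7 further VEGF ligands and receptors, 2 were at least 2-fold higher in the lesion zone at 3 days, with a median log2 ratio of 0.58, and 3 at 28 days, with a median of 0.99. At 3 days Pgf, placental growth factor and a ligand of FLT1, stood at 8.32 CPM (42 UMIs) against 1.75 CPM (14 UMIs), and Flt4, the receptor of VEGF-C, at 8.52 against 2.25 CPM. Pgf thus had a log2 ratio of 2.22 (1.35 to 3.24) early and 1.12 (-0.07 to 2.50) late, and Flt4 of 1.90 (1.10 to 2.80) and 0.16 (-0.79 to 1.10). Vegfd, a ligand of FLT4, was level at 3 days (-0.04) and higher at 28 days (1.46, 0.71 to 2.31), and the co-receptor Nrp2 went from 0.58 to 1.13 (0.83 to 1.45).

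Of the other angiopoietin, angiopoietin-like and Tie genes 4 of 4 with enough UMIs were at least 2-fold higher at 3 days (median 1.51) and 2 of 4 at 28 days (median 0.96). The 2 at 28 days were the angiopoietin-like genes Angptl4 and Angptl2. Tie1, the partner receptor of TEK, stood at 1.79 (1.21 to 2.41) and 0.74 (0.17 to 1.33), and Ptprb, the endothelial phosphatase that acts on TEK, at 1.24 (1.04 to 1.44) and 0.55 (0.38 to 0.72). Angptl4, a secreted inhibitor of lipoprotein lipase, was at 2.32 (1.43 to 3.38) and 3.90 (2.24 to 7.31), the latter on 33 against 2 UMIs. Angptl2 stood at 1.20 and 1.18. Among the other apelin and adrenomedullin genes 1 of 4 genes was at least 2-fold higher and 1 lower at 3 days, and 0 and 1 at 28 days. These were Calcrl, the adrenomedullin receptor, at 1.55 (1.27 to 1.83) at 3 days and 0.88 at 28 days, and its partner Ramp3, at -4.01 (-4.67 to -3.46) with 25 against 650 UMIs and -2.06 (-2.25 to -1.88) at 28 days. The mirrored zone at 28 days held 165 CPM of Ramp3 and its whole side 69.6 CPM, against which the ratio was -0.81, short of 2-fold, while at 3 days it was -3.41.

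Of 9 tip cell genes 6 were at least 2-fold higher at 3 days (median log2 ratio 1.36) and 6 at 28 days (1.19), of which 4 were shared by both times. The shared genes were the chemokine receptor Cxcr4 (2.15 and 3.46), which leukocytes also express, Igfbp3 (2.89 and 1.07), and the basement membrane genes Nid2 (1.70 and 2.11) and Lama4 (2.02 and 1.47). Of 9 Notch genes 3 were higher at 3 days (median 0.43), the receptor Notch1 at 1.55 (1.37 to 1.74), the ligand Jag1 at 1.28 (0.94 to 1.63) and the target Heyl at 1.32 (0.55 to 2.13). At 28 days 1 was higher, Notch1 at 1.08 (0.89 to 1.28), and 1 lower, the feedback inhibitor Nrarp at -1.62 (-2.27 to -1.04).

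Of 6 inhibitors of angiogenesis 3 were at least 2-fold higher at 3 days (median 1.45), and at 28 days 3 were higher and 1 lower (median 1.61). Thbs1, thrombospondin 1, had 1158 UMIs in the zone at 3 days (229 CPM) and 32 in the mirrored zone (4 CPM), a log2 ratio of 5.82 (5.34 to 6.40), and stood at 3.25 (2.56 to 4.11) at 28 days. Thbs2 stood at 2.00 and 3.07, Col18a1, the source of endostatin, at 2.01 and 2.89, and the semaphorin Sema3a at -0.41 and -1.07. Of 8 genes induced by hypoxia-inducible factors, 1 was at least 2-fold higher and 1 lower at 3 days (median 0.22), and 2 were higher and 1 lower at 28 days (median 0.62). The gene higher at 3 days was Ndrg1, at 1.16 (1.03 to 1.28) and later 0.72, which is named outside the rule for named genes, after its values were seen. Car9, a carbonic anhydrase, stood at 0.54 at 3 days and 2.71 (2.02 to 3.55) at 28 days, Egln3 at -0.11 and 1.29, Ankrd37 at -0.15 and -1.26, and Bnip3 at -1.22 and -0.72.

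The genes whose levels most resembled each of the 10 were sought over 236 blocks of 512 µm from both sections, among genes of at least 10 CPM. Pearson's r is given as a description, since blocks share a section, a library and the make-up of neighbouring tissue. Kdr went with Hspg2 (0.65), Eng (0.62) and Nid1 (0.61), Tek with Vwa1 (0.62), Cldn5 (0.61) and Klf2 (0.60), and Flt1 with Epas1 (0.69), Adgrf5 (0.65) and Rgs5 (0.65). Angpt1 went with Tmem176b (0.59), Tmem176a (0.59) and Cd81 (0.58), Vegfa with Kcnh2 (0.55), Itga3 (0.53) and Steap2 (0.50), and Apln with Hr (0.55), Eml1 (0.54) and Fez2 (0.54). Cldn5, the tight junction gene of the blood-brain barrier, is in the endothelial reference list and Rgs5 in the pericyte list. Angpt2, Aplnr, Esm1 and Dll4 had fewer than 5 UMIs per block and were left out.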

How the data were processed

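Visium HD counts of 1 section per time point were analysed. The UMI counts per gene and bin were deposited by the authors as raw counts without normalization, made with Space Ranger 4.0.1 per the file headers on mm10 per the labels' processing notes, from aldehyde-fixed, paraffin-embedded tissue. The probe set limits the genes that can be seen, and a level depends on the probes of a gene. Here bins under 100 UMIs were left out (1.93% at 3 days and 2.15% at 28 days, leaving 119617 and 103316 bins). The injured side was the part of the array before column 130 at 3 days and before column 240 at 28 days. For the lesion zone, bins were pooled into tiles of 4 by 4, the share of the 6 phagocyte genes was smoothed over squares of 5 by 5 tiles, and tiles exceeding the 99th percentile found opposite were kept where 25 or more touched. Reflection across the column line gave the mirrored zone.

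UMIs were summed per area. Log2 ratios had a pseudocount of 0.5 UMI and needed 20 UMIs over both areas. Ratios have exact conditional binomial intervals, levels exact Poisson intervals, and the pairs of genes exact intervals of the odds ratio, all at 95% and for counting error only. No p-value was computed, because no group had a replicate. All 10 genes were named, and from the other lists those past 2-fold in either section, at most 4 per list by size. The genes and lists were chosen with earlier results of these data known. Notch4, which is in the Notch list, was not analysed here. Alternatives were UMIs per bin, TMM scaling (edgeR 4.0.16, R 4.3.3), other minimums and pseudocounts, other zone thresholds and references, a line moved by 16 bins, partnered bins only, choroid plexus tiles left out, and bins thinned to 300 UMIs. Leaving out fibroblast bins, the first 8 columns of the array or Pdgfra from the fibroblast list, keeping only partnered bins in the distance bands and ranking bins by marker share were added after the data were seen. The ratios and their intervals were tested on simulated zone and mirror sums, drawn with counting error only. The placing of the zone, the distance bands and the marker bins were not tested in this way. Python 3.11.15, numpy 2.4.6, scipy 1.17.1, pandas 2.3.3 and matplotlib 3.10.9 were used.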

Additional observations from a re-analysis of the deposited data

Results flagged for a closer look

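Apln was picked out because its difference of the lesion zone from the mirrored zone ran in opposite directions at the 2 times. The log2 ratio was 2.37 at 3 days and -0.94 at 28 days. With 1 section per time the difference between these values was not tested, and the level of the mirrored zones differed between the sections as well, 13.2 CPM at 3 days and 34 CPM at 28 days.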

How the results depend on the processing

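No paired analysis was possible because each group had 1 section and the labels carry no shared replicate numbers. Of 221 alternative values for the ratios of single genes of zone to mirrored zone, 193 lay within the counting interval of the reported value. Of the rest, 28 moved outside it and 0 reversed a ratio of 2-fold or more. The 193 include those with the first 8 columns left out at 28 days, a setting that left the median and counts there unchanged. For the sides 130 of 140 lay within the interval and 10 moved. UMIs per bin shifted the median of all genes from 0.13 to -0.50 at 3 days and from 0.00 to -0.28 at 28 days, so that 3 rather than 6 of the 10 genes were at least 2-fold higher at 3 days and 2 rather than 0 were lower at 28 days. The median of the genes minus that of all genes stayed at 1.26 and -0.24. On this scale 9.05% of all genes were higher and 24.1% lower at 3 days, and 13% and 14.1% at 28 days, and Vegfa was at -0.55 and -1.06. With no minimum per gene 2 of 10 rather than 1 of 8 were higher at 28 days, where 23.8% of all genes were. The median of the genes ranged from 0.76 to 1.73 at 3 days and from -0.52 to 0.35 at 28 days, with a sign above 0 against the whole opposite side (0.04), with the 95th percentile (0.10), with the line moved away from the injured side (0.35) and with no minimum per gene (0.06). At 3 days Angpt2 was 3.46 with the line moved away and 2.61 with the strictest percentile, and Apln 1.62 with the 95th percentile and 1.74 per bin. At 28 days Angpt2 was 0.58 against the whole opposite side and 0.21 with the line moved away, and Angpt1 ranged from 1.10 with the 95th percentile to 2.24 with the line moved away.

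In the distance bands 85 of 97 values from partnered bins lay within the interval, 12 moved and 0 reversed a ratio of 2-fold or more. Marker bins depended most on the rule: 141 of 316 alternative values were within the interval, 168 moved and 7 reversed. For fibroblast and choroid plexus markers, found in under 10% of bins, the rule of the highest 10% picked the same bins as any UMI. These alternatives could not differ from the reported values, and they are counted among the 141. In bins with astrocyte markers Kdr was -1.35 at 3 days and -1.25 at 28 days by any UMI, but 0.04 and 0.17 with bins thinned to 300 UMIs and 0.82 and 0.59 in the highest 10% of bins. Angpt2 was -1.55 and -1.01, but 0.66 and 0.32 in the highest 10% and 0.10 at 28 days when thinned. The cause was not tested. Depth limited Aplnr and Esm1 most, with 62 and 57 UMIs in the whole section at 3 days.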
